A study of Homo sapiens with 6 samples.

Results

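Genes that load lipid onto apolipoprotein B and carry the particle out of the endoplasmic reticulum were examined in HepG2, a hepatocyte-like line grown from a human liver tumour. The 10 genes, MTTP, CIDEB, PLA2G12B, TM6SF2, APOB, APOC3, SAR1B, SURF4, MIA2 and P4HB, were chosen by their role in that process, with earlier results of these arrays known, and all 10 were among the 33616 genes with a probe set of their own. The probe set of a gene was selected on the highest mean log2 value over the 6 arrays, which does not use the groups. The 6 arrays hold cells given 30 nM of either a scrambled siRNA (3 arrays) or an siRNA specific for UHMK1 (3 arrays), a protein kinase known for phosphorylating the splicing factor SF1. RNA was taken 24 h later from both groups. Nothing in the labels ties the 3 samples of a group to separate cultures, so the p-values rest on the spread between samples that may be technical repeats. They name 1 cell line and 1 UHMK1 siRNA group, so the loss of UHMK1 and other effects of that siRNA cannot be told apart.

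Hepatocytes export triglyceride as very low density lipoprotein (VLDL), a particle built around apolipoprotein B. MTTP, held as a dimer with the disulfide isomerase P4HB, transfers lipid to apolipoprotein B while that protein enters the endoplasmic reticulum, and further lipid is added before export in coated vesicles. HepG2 cells are known for secreting particles with less lipid than those of primary hepatocytes.

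UHMK1 itself read 11.42, 11.24 and 11.74 with scrambled siRNA against 8.36, 7.80 and 7.94 with UHMK1 siRNA, without overlap. All 8 hepatocyte markers were measured at mean log2 levels between 14.36 and 19.19, and 0 of them passed the test in limma, with 1 at an unadjusted p under 0.05. Of markers of other cells, 26 of 28 were measured and 0 passed, with 3 at an unadjusted p under 0.05. Such a p was found for 5132 of all 33616 genes. The 6 endothelial markers lay between 3.56 and 6.19, while some markers of other lists lay higher, such as LYZ (18.38), KRT19 (14.60), ACTA2 (11.39) and VIL1 (12.29), named after their values were seen. The mean level of a marker list differed between arrays by at most 0.42 log2 units, for the endothelial markers. UHMK1 siRNA array 2 stood apart. Taking genes whose mean log2 level exceeded 8, the median of this array was -0.25 relative to the mean of the scrambled siRNA arrays, and that of UHMK1 siRNA arrays 1 and 3 was -0.03 and -0.06. With that array left out, MTTP differed by 1.41, CIDEB by 1.51 and PLA2G12B by 1.33, and all 3 calls held.

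MTTP, which transfers lipid, CIDEB, which promotes lipid loading, and PLA2G12B, which holds the growing particle at the membrane, rose after UHMK1 siRNA, by between 2.65-fold and 2.85-fold. They were 3 of the 10 genes, and 0 of the 10 fell. Of all 33616 genes, 0.726% rose and 2.67% fell in the same limma fit, 3.39% together, at a Benjamini-Hochberg adjusted p under 0.05 over all genes. Of the 10 genes, 5 had an unadjusted p under 0.05, against 5132 of all 33616 genes. The median log2 difference, UHMK1 siRNA minus scrambled siRNA, was 0.08 over the 10 genes and -0.02 over all genes. Without UHMK1 siRNA array 2 these medians were 0.25 and -0.02. The 10 genes were chosen with earlier results of these data known, so their count is a description. In bulk RNA, fewer cells of a type and less RNA per cell cannot be told apart, and fold sizes are those of the deposited scale.

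The start regions of these 3 genes are shown because they rose together. RefSeq (GRCh38.p14) lists a start region for 7 of the 10 genes, and not for APOB, APOC3 or MIA2. The 250 bases before each start were searched on both strands for 4 short motifs of liver transcription factors, chosen with the sequences in view. They were AAAGTCCA (a core bound by HNF4 proteins), AGGTCA (a nuclear receptor half-site), the HNF1 core (TTAAT and ATTAA around 1 base of any kind) and TAAACA (a FOXA core). Capitals mark the matches. In PLA2G12B the AAAGTCCA match overlaps a TAAACA match on the other strand.

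MTTP, second of 2 listed starts, chr4:99574574-99574823, plus strand: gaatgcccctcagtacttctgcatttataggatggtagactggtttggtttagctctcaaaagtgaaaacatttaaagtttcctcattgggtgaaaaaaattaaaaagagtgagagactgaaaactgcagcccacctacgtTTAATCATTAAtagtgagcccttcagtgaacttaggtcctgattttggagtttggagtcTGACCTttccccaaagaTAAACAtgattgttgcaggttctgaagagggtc
CIDEB, second of 2 listed starts, chr14:24307978-24308227, minus strand: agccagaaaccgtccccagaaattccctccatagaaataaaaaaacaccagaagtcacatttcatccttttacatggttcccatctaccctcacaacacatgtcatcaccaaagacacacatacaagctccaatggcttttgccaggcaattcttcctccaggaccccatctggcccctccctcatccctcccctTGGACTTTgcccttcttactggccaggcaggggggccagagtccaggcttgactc
PLA2G12B, the only listed start, chr10:72954807-72955056, minus strand: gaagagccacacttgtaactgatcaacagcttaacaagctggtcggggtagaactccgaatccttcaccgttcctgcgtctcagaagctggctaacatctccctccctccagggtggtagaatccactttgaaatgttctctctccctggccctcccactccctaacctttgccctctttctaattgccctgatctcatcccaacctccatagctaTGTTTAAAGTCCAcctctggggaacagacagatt

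The match to AAAGTCCA began 55 bases before the CIDEB start and 29 bases before the PLA2G12B start, and 0.98% of the 35116 listed promoters held this motif. MTTP held the HNF1 core, found in 0.0883% of promoters, beside AGGTCA and TAAACA, found in 12.1% and 11% of promoters. None of these motifs was found before the first listed starts of MTTP and CIDEB or before the starts of TM6SF2, SAR1B, SURF4 and P4HB. APOB, APOC3 and MIA2, without a listed start, could not be searched. Because the motifs were chosen with the sequences in view, neither these shares nor this absence is a test. A motif match is a description of letters and not of a bound factor, and the arrays do not tell which start was used.

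MTTP encodes the large subunit of the microsomal triglyceride transfer protein, without which apolipoprotein B is not secreted. Its log2 level was 12.76, 12.86 and 12.87 with scrambled siRNA against 14.37, 14.24 and 14.10 with UHMK1 siRNA. The arrays of a group lay close together and the groups did not overlap. MTTP rose by 1.41 on the log2 scale (SE 0.15, 95% confidence interval 1.08 to 1.74), or 2.65-fold on the deposited scale, with limma's adjusted p = 0.00175. With any 1 array left out the difference stayed between 1.34 and 1.48, and the highest adjusted p was 0.0152. It was the 20th largest upward difference of the 33616 genes.

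**Figure D1:**
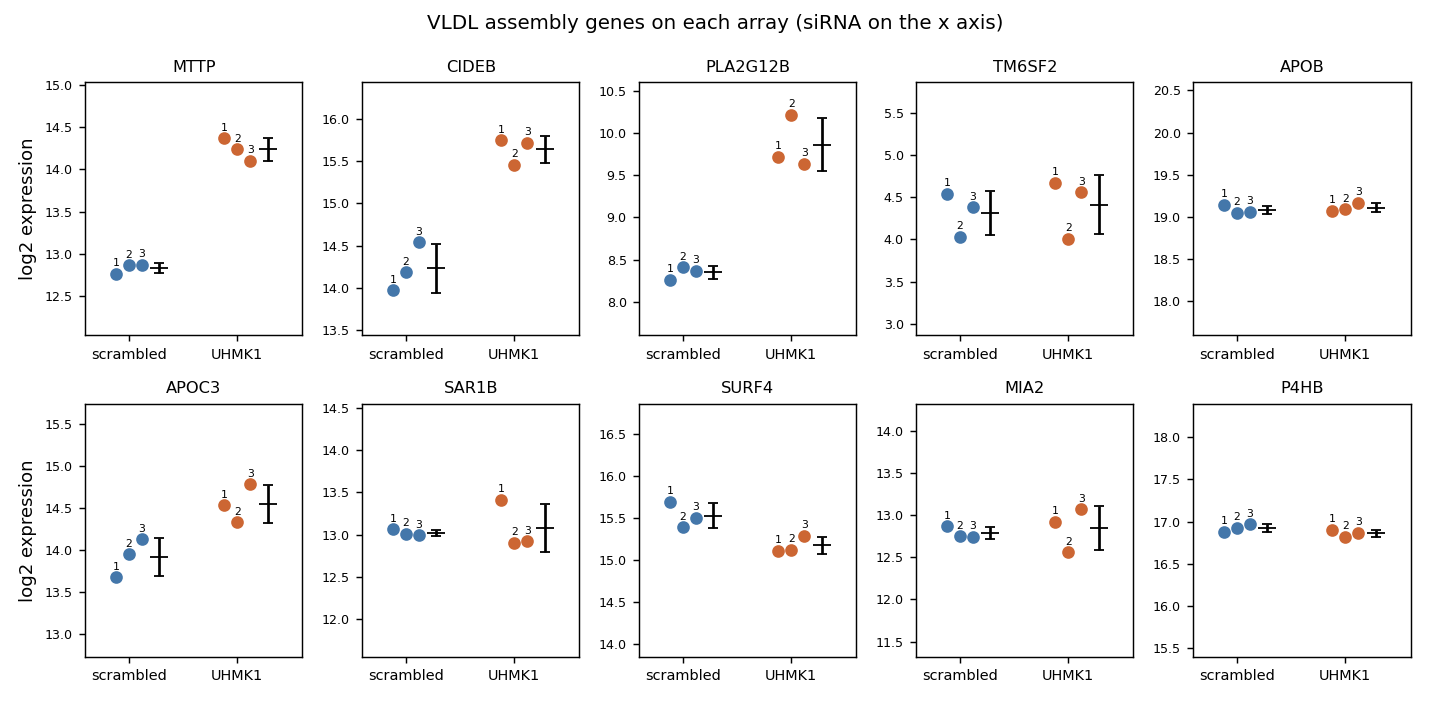
Log2 expression of the 10 VLDL assembly genes on each array (y axis, the same span of 3 log2 units in every panel), with array numbers beside the points and the mean and SD (n = 3) to their right. MTTP, CIDEB, PLA2G12B and APOC3 are higher on every UHMK1 siRNA array than on any scrambled siRNA array, SURF4 is lower, and the other genes overlap between groups.

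CIDEB encodes a protein of lipid droplets and the endoplasmic reticulum that, in mice, is needed for the lipidation of VLDL. Its log2 level was 13.97, 14.18 and 14.54 after scrambled siRNA and 15.75, 15.46 and 15.72 after UHMK1 siRNA. The scrambled siRNA arrays spread more widely than for MTTP, and still lay below all UHMK1 siRNA arrays. CIDEB rose by 1.41 (SE 0.18, 95% confidence interval 1.00 to 1.83), or 2.66-fold, with limma's adjusted p = 0.00428. The difference lay between 1.28 and 1.57 with any 1 array left out, with adjusted p-values up to 0.0307. RefSeq places NOP9 and LTB4R2 in positions that overlap CIDEB. NOP9, which functions in ribosomal RNA processing, fell by 0.70 (limma's adjusted p = 0.0406), and LTB4R2 was not analysed here. The flanking gene DHRS1 differed by 0.38 (adjusted p = 0.328), in the direction of CIDEB. CIDEC, a close relative of CIDEB that enlarges lipid droplets, differed by 0.68 (adjusted p = 0.254), and by 0.99 with an adjusted p = 0.0269 without UHMK1 siRNA array 2. CIDEA, the other relative, differed by 0.24 (adjusted p = 0.677), at mean log2 levels of 4.05 and 4.30.

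PLA2G12B encodes a secreted-phospholipase relative without catalytic activity that, in mice and zebrafish, holds apolipoprotein B and MTTP together on the membrane of the endoplasmic reticulum. Its log2 level was 8.26, 8.41 and 8.37 after scrambled siRNA and 9.72, 10.22 and 9.64 after UHMK1 siRNA. The groups did not overlap, and UHMK1 siRNA array 2 was the highest of the 6. PLA2G12B rose by 1.51 (SE 0.18, 95% confidence interval 1.10 to 1.93), or 2.85-fold, with limma's adjusted p = 0.00318. Without UHMK1 siRNA array 2 the difference was 1.33 and the adjusted p = 0.00565. With any 1 array left out the difference lay between 1.33 and 1.62, with adjusted p-values up to 0.0244. PLA2G12B had the 10th largest upward difference of all genes, and CIDEB the 17th. The relative PLA2G12A, which keeps the catalytic site, differed by -0.40 (adjusted p = 0.432). P4HA1, a neighbour of PLA2G12B on the chromosome and the alpha subunit of collagen prolyl hydroxylase that pairs with P4HB, differed by -0.16 (adjusted p = 0.722).

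The shares of genes that rose and fell differed with the level. At a mean log2 level of 8 to 10, where PLA2G12B lay, 1.69% rose and 7.17% fell. At 12 to 14, where MTTP lay, 2.45% rose and 9.46% fell, and at 14 to 16, where CIDEB lay, 1.90% rose and 7.45% fell. A mean log2 level over 8, a limit set after seeing the data, was reached by 8865 genes, of which 2.00% rose and 8.39% fell. MTTP, CIDEB and PLA2G12B were each read by 1 probe set.

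**Figure D2:**
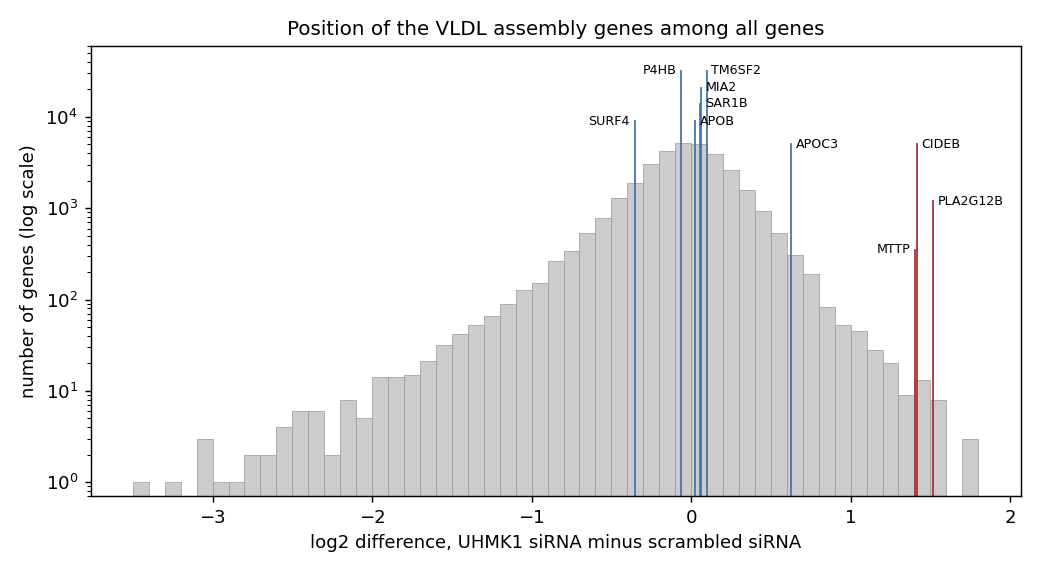
Number of genes (y axis, log scale) by log2 difference, UHMK1 siRNA minus scrambled siRNA (x axis, bins of 0.1). Vertical lines mark the 10 VLDL assembly genes, with heights set for legibility only. PLA2G12B, CIDEB and MTTP (red) lie in the upper tail, between 1.41 and 1.51 and the other 7 between -0.35 and 0.63.

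The partners of MTTP in the core reaction gave values near 0. APOB, the structural protein of the particle, read 19.14, 19.05 and 19.06 with scrambled siRNA against 19.07, 19.09 and 19.17 with UHMK1 siRNA. The arrays interleaved, and the difference was 0.03 (95% confidence interval -0.28 to 0.34, limma's adjusted p = 0.958). These levels lie near the highest value of the table, 19.93. At a mean log2 level of 18 to 20 there were 64 genes, of which 0.00% rose and 6.25% fell. P4HB read 16.88, 16.93 and 16.97 with scrambled siRNA against 16.90, 16.82 and 16.87 with UHMK1 siRNA. Its groups overlapped, with a difference of -0.06 (95% confidence interval -0.37 to 0.25, adjusted p = 0.888). The intervals of APOB and P4HB end below that of MTTP, which begins at 1.08. A comparison of these differences between genes was not tested.

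APOC3, a small apolipoprotein on the particle surface known for slowing the breakdown of triglyceride by lipoprotein lipase, lay between the genes that rose and those near 0. Its log2 level was 13.68, 13.95 and 14.13 after scrambled siRNA and 14.53, 14.33 and 14.78 after UHMK1 siRNA. The groups did not overlap, and the SD was 0.23 in each (n = 3). The difference was 0.63 (SE 0.18, 95% confidence interval 0.22 to 1.04), which did not pass (limma's adjusted p = 0.118). It passed with a variance trend and robust estimation (adjusted p = 0.0360). The flanking gene APOA4, also of lipoprotein metabolism, differed by -0.39 (adjusted p = 0.329), and the other flanking gene APOA1, the main protein of high density lipoprotein, by 0.15 (adjusted p = 0.786).

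TM6SF2, a membrane protein of the endoplasmic reticulum that takes part in adding lipid to the particle, gave a dim signal. Its log2 level was 4.54, 4.03 and 4.38 after scrambled siRNA and 4.67, 4.01 and 4.56 after UHMK1 siRNA. The groups overlapped fully. The mean over all arrays, 4.37, lay under the median of all probe sets, 4.44, and the filter on dim genes left it out. The difference was 0.10 (95% confidence interval -0.39 to 0.58, limma's adjusted p = 0.893). Its relative TM6SF1 differed by 0.07 (adjusted p = 0.897), at mean log2 levels of 5.09 and 5.16.

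**Figure D3:**
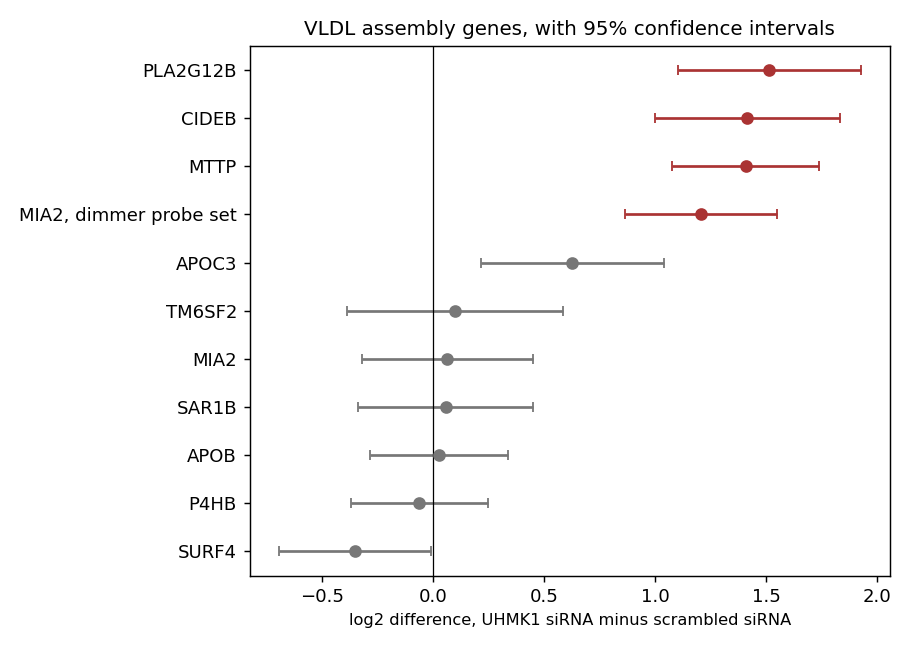
Log2 difference, UHMK1 siRNA minus scrambled siRNA (x axis), with its 95% confidence interval for each VLDL assembly gene and for the dimmer MIA2 probe set. Red marks an adjusted p under 0.05 and grey the rest. The red values run from 1.21 to 1.51, and the interval of APOC3, 0.22 to 1.04, excludes 0 although its adjusted p did not pass.

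The genes of export from the endoplasmic reticulum begin with SAR1B, the GTPase that starts the coat of export vesicles and whose loss blocks chylomicron export in people. SAR1B read 13.06, 13.01 and 12.99 with scrambled siRNA against 13.41, 12.90 and 12.92 with UHMK1 siRNA. UHMK1 siRNA array 1 was the highest of the 6 and the other arrays of that group the lowest. The difference was 0.06 (95% confidence interval -0.34 to 0.45, limma's adjusted p = 0.924), and it was -0.11 without UHMK1 siRNA array 1. A second, dim SAR1B probe set, listed without an Entrez gene ID, differed by 0.52 (adjusted p = 0.365 over all single-symbol probe sets). Its mean log2 level went from 4.55 to 5.07. The close relative SAR1A differed by 0.07 (adjusted p = 0.885).

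SURF4 encodes the receptor that recruits apolipoprotein B particles into export vesicles. Its brightest probe set read 15.69, 15.39 and 15.50 with scrambled siRNA against 15.11, 15.12 and 15.29 with UHMK1 siRNA. The UHMK1 siRNA arrays were all lower, and the difference, -0.35 (95% confidence interval -0.70 to -0.01), did not pass (limma's adjusted p = 0.309). SURF4 was read by 10 probe sets, and the other 9 also gave negative differences, down to -0.55. Of these, 0 passed the threshold in the fit over all single-symbol probe sets, where 2.35% fell. All but 1 of the 10, including the brightest, carry the word Unmapped in their platform identifiers. The 1 without it, the 7th by brightness, differed by -0.23 (limma's adjusted p = 0.568 in that fit), with overlapping groups. Probe sets of 1 gene share the same RNA and are not replicates. Its flanking gene REXO4 fell by 0.92 (limma's adjusted p = 0.00872), and SURF2, on the other side, differed by -0.56 (adjusted p = 0.0948), both in the direction of SURF4. Of 23 coding genes that overlap or flank the 10 genes in RefSeq, 20 were measured, of which 0 rose and 2, NOP9 and REXO4, fell. Over all genes 0.726% rose and 2.67% fell. Above a mean log2 level of 8, where NOP9 and REXO4 lay, these shares were 2.00% and 8.39%.

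Groups without overlap were found for 5 of the 10 genes: MTTP, CIDEB, PLA2G12B, APOC3 and SURF4. All UHMK1 siRNA arrays were higher for each but SURF4. For SURF4 they were all lower on its brightest probe set, which is marked Unmapped. Over all genes, 7.74% had all UHMK1 siRNA arrays higher and 13.3% all lower, 21.0% together. Above a mean log2 level of 8, where 9 of the 10 genes lay, these shares were 13.0% and 30.0%.

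MIA2 encodes organisers of the sites where cargo leaves the endoplasmic reticulum, and RefSeq gives CTAGE5 and TALI as further names of the gene. Its brighter probe set read 12.87, 12.75 and 12.74 with scrambled siRNA against 12.92, 12.56 and 13.07 with UHMK1 siRNA. The groups overlapped, and the difference was 0.06 (95% confidence interval -0.32 to 0.45, limma's adjusted p = 0.910). The gene table names a second, dimmer probe set MIA2 under an older Entrez gene ID, which is not in the RefSeq table used here. That probe set read 9.15, 9.02 and 9.27 with scrambled siRNA against 10.48, 10.23 and 10.35 with UHMK1 siRNA.

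The dimmer MIA2 probe set was higher on every UHMK1 siRNA array. In a fit over all 36176 single-symbol probe sets, where 0.630% rose, it rose by 1.21 (SE 0.15, 95% confidence interval 0.86 to 1.55), with limma's adjusted p = 0.00439. With any 1 array left out the difference was between 1.14 and 1.27, with adjusted p-values up to 0.0315. The gap between both probe sets was 3.72, 3.73 and 3.47 log2 units with scrambled siRNA against 2.44, 2.33 and 2.72 with UHMK1 siRNA. The groups did not overlap in this gap. The change of the gap was -1.14 (SE 0.16, unadjusted p = 0.000511 in limma), which did not pass when adjusted over the 2560 pairs of a brightest and another probe set of a gene (adjusted p = 0.145). In that fit 0 pairs passed, or 0.00%, and 250 had an unadjusted p under 0.05. The sources used here do not give which MIA2 transcripts each probe set reads. The mean of both probe sets differed by 0.64 (adjusted p = 0.0636). Both the single test and the gap were chosen after seeing the data.

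**Figure D4:**
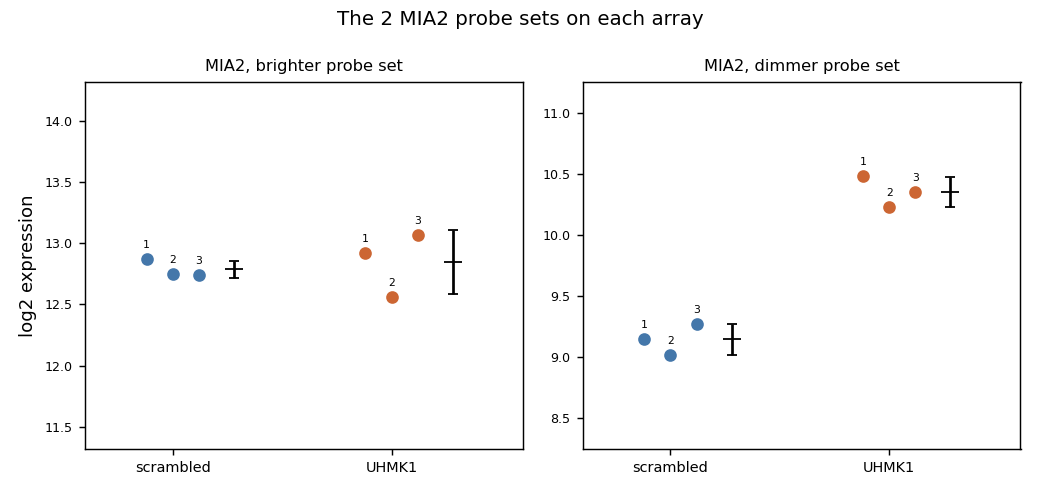
Log2 expression of the brighter (left) and dimmer (right) MIA2 probe set on each array, with array numbers beside the points and the mean and SD (n = 3) to their right; both y axes span 3 log2 units. The brighter probe set overlaps between groups, and the dimmer one goes from 9.15 to 10.35 in the mean.

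Related genes were read from 8 lists written from general knowledge, with 108 of 123 genes measured. Of these, 2 rose and 7 fell, against 0.726% and 2.67% of all genes. The falls depend on the level: 72 of the 108 had a mean log2 level above 8, and of these 2 rose and 6 fell, against 2.00% and 8.39% of all genes at such levels. A count of 6 among 72 is close to that share. The vesicle coat and export list had all 19 genes measured, of which 0 rose and 2 fell, with a median of -0.27. All UHMK1 siRNA arrays were lower for 9 of the 19 genes and higher for 6, against 13.3% and 7.74% of all genes. Of all genes with a mean log2 level above 8, as 17 of the 19 had, these shares were 30.0% and 13.0%. UHMK1 siRNA array 2, which stood apart at -0.25, was the lowest array of its group for 11 of the 12 genes with a negative difference, and for 69.6% of such genes above that level. Its part in these counts was not tested, and without it the median of the list was -0.21. MCFD2, which with LMAN1 forms a cargo receptor for clotting factors, fell by 1.98 (SE 0.15, limma's adjusted p = 0.000470), from 14.55 ± 0.08 to 12.56 ± 0.17 (SD, n = 3). PREB, the exchange factor that loads SAR1 proteins with GTP, fell by 0.79 (adjusted p = 0.0193), and its call was lost on leaving out any array other than UHMK1 siRNA array 2 (adjusted p 0.0502 to 0.0912). MIA3, the relative of MIA2 that helps export large cargo, differed by 0.68 (adjusted p = 0.0983).

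Genes that supply lipid to the particle had 0 rises and 0 falls among 20 measured in limma, with a median of 0.01. Of the 20, 3 had an unadjusted p under 0.05, against 5132 of all 33616 genes. ACSL1, which activates fatty acids, differed by -0.91 (adjusted p = 0.0646), and passed in 4 of the 12 alternatives, among them the fit without UHMK1 siRNA array 1 (-1.11, adjusted p = 0.0401). SOAT1, which esterifies cholesterol, differed by 0.46 (adjusted p = 0.146), and the phosphatidate phosphatase LPIN2 by -0.41 (adjusted p = 0.281).

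Of 14 lipid droplet genes, 1 fell and 0 rose, with a median of -0.05. Of the 6 with a mean log2 level above 8, 1 fell and 0 rose, against 8.39% and 2.00% of all genes at such levels. PLIN2, a coat protein of lipid droplets, fell by 1.51 (SE 0.15, limma's adjusted p = 0.00147), from 14.40 ± 0.04 to 12.89 ± 0.17 (SD, n = 3). It was read by 2 probe sets, the dimmer of which differed by 0.51 at mean log2 levels of 3.51 and 4.02, and their mean did not pass (-0.50, adjusted p = 0.174). TMEM41B, a lipid scramblase of the endoplasmic reticulum, differed by 0.54 (adjusted p = 0.128) and FITM2, which acts in droplet budding, by 0.50 (adjusted p = 0.129).

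Among 12 genes of folding and degradation in the endoplasmic reticulum, 1 fell and 0 rose, with a median of -0.15. Of the 11 with a mean log2 level above 8, 1 fell and 0 rose, against 8.39% and 2.00% of all genes at such levels. The chaperone calnexin, CANX, fell by 1.07 (SE 0.20, limma's adjusted p = 0.0230), and the call was lost on leaving out UHMK1 siRNA array 1 or any of the scrambled siRNA arrays (adjusted p 0.0539 to 0.105). HSP90B1 differed by -0.95 (adjusted p = 0.201), and fell by 1.38 without UHMK1 siRNA array 1 (adjusted p = 0.0203). Its mean log2 levels were 7.94 with scrambled siRNA and 6.99 with UHMK1 siRNA, far below those of CANX, 17.90 and 16.83. The HSP90B1 probe set had no RefSeq match by Entrez ID and kept the symbol of the platform annotation. SEL1L, of the degradation complex, differed by 0.37 (adjusted p = 0.250). PDIA3, a relative of P4HB, differed by -0.01 (adjusted p = 0.987), PDIA2 by -0.06 (adjusted p = 0.892) and P4HA2, a partner of P4HB, by -0.25 (adjusted p = 0.598).

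The 11 other apolipoproteins had 0 rises and 0 falls in limma, with 1 at an unadjusted p under 0.05, and a median of -0.04. APOF, an inhibitor of cholesteryl ester transfer, differed by -0.59 (adjusted p = 0.0916) and APOM, which carries sphingosine-1-phosphate, by -0.38 (adjusted p = 0.479). Genes of clearance and lipolysis, 9 measured, also had 0 rises and 0 falls, with 2 at an unadjusted p under 0.05, and a median of 0.06. The receptors VLDLR and LRP1 differed by 0.76 (adjusted p = 0.148) and 0.50 (adjusted p = 0.201), and ANGPTL8, an inhibitor of lipoprotein lipase, by -0.39 (adjusted p = 0.570). Of the 10 close relatives and partners of the VLDL assembly genes, 0 rose and 0 fell, with 2 at an unadjusted p under 0.05. An unadjusted p under 0.05 was found for 5132 of all 33616 genes.

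Transcription factors known to act on genes of lipid export had 2 rises and 3 falls among 18 measured. Of the 10 with a mean log2 level above 8, 2 rose and 2 fell, against 2.00% and 8.39% of all genes at such levels. The median of the list was -0.11, and 0.00 without UHMK1 siRNA array 2. CREB3L3, a liver factor released from the endoplasmic reticulum that controls triglyceride genes, read 7.77, 7.72 and 8.51 with scrambled siRNA against 9.29, 9.15 and 9.65 with UHMK1 siRNA. The groups did not overlap. CREB3L3 rose by 1.36 (SE 0.24, limma's adjusted p = 0.0167), and the call was lost on leaving out UHMK1 siRNA array 1 or 3 or scrambled siRNA array 1 or 2 (1.22 to 1.40, adjusted p 0.0539 to 0.0843). SREBF2, which drives cholesterol synthesis, rose by 0.79 (adjusted p = 0.0490), and the call was lost with any 1 array left out (adjusted p up to 0.168).

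NR0B2, a nuclear receptor that represses other receptors such as HNF4A, read 11.57, 12.18 and 11.78 with scrambled siRNA against 10.57, 10.31 and 10.84 with UHMK1 siRNA. All UHMK1 siRNA arrays were lower. NR0B2 fell by 1.27 (SE 0.21, limma's adjusted p = 0.0120), with adjusted p-values of 0.0560 and 0.0517 without scrambled siRNA arrays 2 or 3. FOXO1, an insulin-restrained factor known to activate MTTP in liver, fell by 0.94 (adjusted p = 0.0210). CEBPA, a factor of hepatocyte differentiation, fell by 0.91 (adjusted p = 0.0169). The call for FOXO1 was lost on leaving out UHMK1 siRNA array 3 or any of the scrambled siRNA arrays (adjusted p 0.0563 to 0.0964). That for CEBPA was lost on leaving out UHMK1 siRNA array 1 or 3 or scrambled siRNA array 2 or 3 (adjusted p 0.0617 to 0.0843). The dimmer of 2 FOXO1 probe sets, listed without an Entrez gene ID, differed by 0.02 at mean log2 levels of 4.84 and 4.85. The mean of both probe sets did not pass (-0.46, adjusted p = 0.427).

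**Figure D5:**
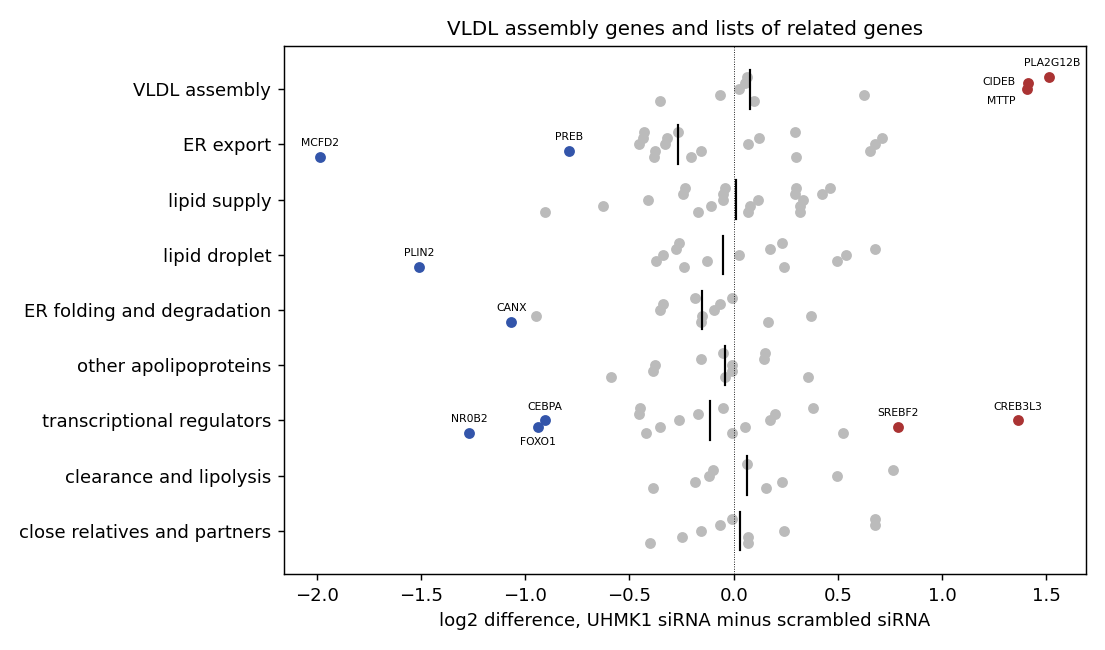
Log2 difference, UHMK1 siRNA minus scrambled siRNA (x axis), of each measured gene in the VLDL assembly group and in 8 lists of related genes (y axis; vertical position within a row only separates points). Red genes rose and blue genes fell at an adjusted p under 0.05, grey genes did not pass, and black bars mark list medians, from -0.27 for the export list to 0.08 for VLDL assembly.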

How the data were processed

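Biotin-labelled cRNA was hybridised to 6 Affymetrix arrays, per the labels' protocols. The deposited values are log2 expression values for 135750 probe sets, for which the submitters' processing notes name Transcriptome Analysis Console 4.0 and RMA; no genome build is named. RMA scales arrays to each other, so amounts of RNA per cell are lost. Values were used as deposited.

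Gene symbols came from the platform annotation and were brought up to date through RefSeq (GRCh38.p14) by Entrez ID. Of the probe sets, 36176 have 1 symbol, 1119 several and 98455 are not listed. The brightest probe set per gene left 33616 genes. Of these, 24321 were matched by Entrez ID, and the rest kept the symbol of the platform annotation. The comparison used limma 3.58.1 under R 4.3.3 (a two-sided moderated test from lmFit and eBayes, no covariates), with p-values adjusted by Benjamini-Hochberg over all genes and a threshold of 0.05. Alternatives were quantile or cyclic loess normalization, a filter on dim genes (mean above 4.44), the mean of all probe sets, a variance trend with robust estimation, the replicate number as a block, and leaving out each array.

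The genes and lists were chosen with earlier results of these data known. Named were UHMK1, all 10 genes, the close relatives and partners, and of each other list the genes past the threshold (at most 6), filled up to 3 by smallest p; neighbours on the chromosome, and genes marked as seen first, stand outside this rule. The number of arrays limits precision.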

Additional observations from a re-analysis of the deposited data

How the results depend on the processing

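MTTP, CIDEB and PLA2G12B rose in each of the 12 alternatives run, and 0 of the 10 VLDL assembly genes fell in any. With a variance trend and robust estimation APOC3 joined them (4 rises), 400 genes rose in all and 4 genes of the related lists rose. With 1 array left out, 70 to 237 genes rose and 319 to 662 fell, 3 VLDL assembly genes rose, and 0 to 3 genes of the related lists rose and 2 to 8 fell. Fewer arrays enter these fits. The replicate numbers of the titles gave no sign of paired arrays. Deviations from the group means correlated at 0.05, 0.03 and -0.04 for the same numbers, and not every array correlated best with its own number. With 3 arrays per group, this check cannot show that the arrays were unpaired. With the replicate block 146 genes rose and 576 fell, and 1 gene of the related lists rose, while the VLDL assembly calls stayed at 3. PREB (adjusted p = 0.0590) and SREBF2 (adjusted p = 0.0810) missed the threshold with the block. The cause of these moves was not tested. The dimmer MIA2 probe set gave 1.21 where the brighter gave 0.06, and the cause was not tested. TM6SF2 has no value under the filter on dim genes. TM6SF2 lay under the median signal and APOB near the highest value of the table. The number of arrays limits precision, and a p that misses the threshold does not show equal levels.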
